A study of Mus musculus with 7 samples.

Results

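The genes described here are 43 mouse genes whose products copy DNA or supply the nucleotides for it, taken from a given list of symbols and matched to the deposited count table. All 43 were found among its 54532 features, and all 43 were among the 15441 genes that passed the filter on low counts and were tested. They fall into 8 roles: origin licensing, MCM proteins, helicase activation, polymerases and primase, the sliding clamp with its loader and lagging-strand enzymes, nucleotide supply, E2F factors with E cyclins, and chromatin copying. Their expression was read from RNA sequencing of C3H10T1/2 cells, a mouse line that the labels call mesenchymal stem cells. There were 4 OB libraries, from cells induced toward osteoblasts for 3 days with β-glycerophosphate at 10 mM, L-ascorbic acid at 50 µM, dexamethasone and penicillin-streptomycin. There were 3 control libraries, all from untreated cells. Cells of the line were grown in MEM containing sodium pyruvate, L-glutamine, FBS and non-essential amino acids, and the labels name neither the culture time nor the density of the untreated cells. The study's title asks which genes change early in osteoblast differentiation.

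A chromosome is copied from origins that are licensed before S phase. The origin recognition complex, CDC6 and CDT1 load the ring of MCM proteins, which CDC45 and the GINS complex later turn into an active helicase. Polymerase alpha with primase starts each strand, polymerases epsilon and delta extend it on the PCNA clamp, and FEN1 and LIG1 finish the lagging strand. Ribonucleotide reductase, thymidylate synthase, thymidine kinase and dUTPase keep up the supply of DNA building blocks. Most of these genes are textbook targets of E2F factors, which are held back by RB proteins in resting cells, whereas genes of mitosis are classically read through CHR and CCAAT elements. In cultures that are induced to differentiate, the level of these RNAs is often used as a gauge of how many cells are cycling.

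The stretches before the start sites of 4 of the genes, and of 2 mitosis genes set beside them, are shown as examples. Each was picked because it holds the letters searched for in its gene group, so the contrast between groups follows from that choice. E2F letters stood before the start in 10 of the 36 genes with a promoter window. Each stretch is 60 bases 5′ to 3′ on the gene's strand, from RefSeq on GRCm38.p6, and ends at or before the annotated RefSeq start. Capitals mark E2F letters in the replication genes, and CHR or CCAAT letters in the mitosis genes, on either strand.
Mcm5, chr8:75109330-75109389, plus strand: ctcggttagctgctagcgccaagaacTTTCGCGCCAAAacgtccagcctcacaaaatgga
Mcm6, chr1:128359782-128359841, minus strand: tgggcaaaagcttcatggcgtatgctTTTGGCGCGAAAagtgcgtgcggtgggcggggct
E2f7, chr10:110745215-110745274, plus strand: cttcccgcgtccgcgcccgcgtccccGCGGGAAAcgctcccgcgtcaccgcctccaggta
Pola1, chrX:93632260-93632319, minus strand: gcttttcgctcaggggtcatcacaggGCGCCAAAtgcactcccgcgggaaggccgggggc
Cdk1, chr10:69352950-69353009, minus strand: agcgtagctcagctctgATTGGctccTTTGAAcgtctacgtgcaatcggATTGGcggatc
Kif11, chr19:37376322-37376381, plus strand: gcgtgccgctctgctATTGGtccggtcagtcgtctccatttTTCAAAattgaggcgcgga

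The E2F letters searched were TTTGGCGC, TTTCCCGC, TTTGCCGC and TTTCGCGC on both strands of windows from 250 bases before to 50 bases after each start. RefSeq windows were matched for 36 of the 43 genes, and those of Gmnn, Mcm4, Gins1, Gins2, Prim2, Pole and Ccne2 were not used here. Of the 36 genes, 15 (41.7%) held at least 1 of these letter runs, against 704 of all 27025 genes in the table (2.60%) and 2 of 21 mitosis genes (9.52%). TTTGGCGC and TTTCGCGC on opposite strands share 4 bases in Mcm5 and in Mcm6, where they make 1 run of 12. CHR letters, TTTGAA on either strand, stood in 6 of the 36 genes (16.7%), in 15 of 21 mitosis genes (71.4%) and in 20.2% of all genes. CCAAT letters were found in 22 of the 36 genes (61.1%), 17 of the 21 mitosis genes (81.0%) and 41.1% of all genes. The 15 genes with E2F letters had a median log2 fold change of -1.21 and the 21 without them -1.10, values that are given with no test. A match is a run of letters and says nothing of binding.

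All 43 genes had a lower fitted level in OB than in control, and 9 of them passed the test: Mcm5, Mcm10, Gins2, Pole, Rfc3, Rfc4, Lig1, Tk1 and Uhrf1. The test was edgeR's quasi-likelihood test, with p adjusted by Benjamini-Hochberg over all genes tested and a threshold of 0.05. By it 574 of 15441 genes were lower in OB (3.72%) and 667 were higher (4.32%). None of the 43 was called higher, also at an unadjusted p under 0.05 and also by DESeq2 and limma-voom, and 36 were lower at an unadjusted p under 0.05, against 12.4% of all genes. The fitted log2 fold changes (OB over control) ran between -2.10 for E2f2 and -0.30 for E2f1, with a median of -1.12, where the median of all genes was -0.004. For 19 of the 43 genes every OB library lay below every control library, as it did for 1893 of all genes tested (12.3%).

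These 9 calls rested on the particular set of libraries. With the replicate number as a block in edgeR, 0 of the 43 genes were called (3.38% of all genes were called lower). At an unadjusted p under 0.05, 21 were lower (12.2% of all genes), and the smallest adjusted p was 0.0573. OB 4 has no control of its number, so this block also takes OB 4 out of the contrast, and leaving out OB 4 alone gave 0 calls as well. The block by label set, which keeps OB 4, gave 16. Without control 1, 36 of the 43 genes were called lower, against 4.43% of all genes, whereas without control 3 the call remained for Lig1 only, against 3.2%. DESeq2 called 30 of the 43 genes lower and 6.44% of all genes. In bulk RNA a smaller share of cycling cells and less RNA per cell cannot be told apart.

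**Figure D1:**
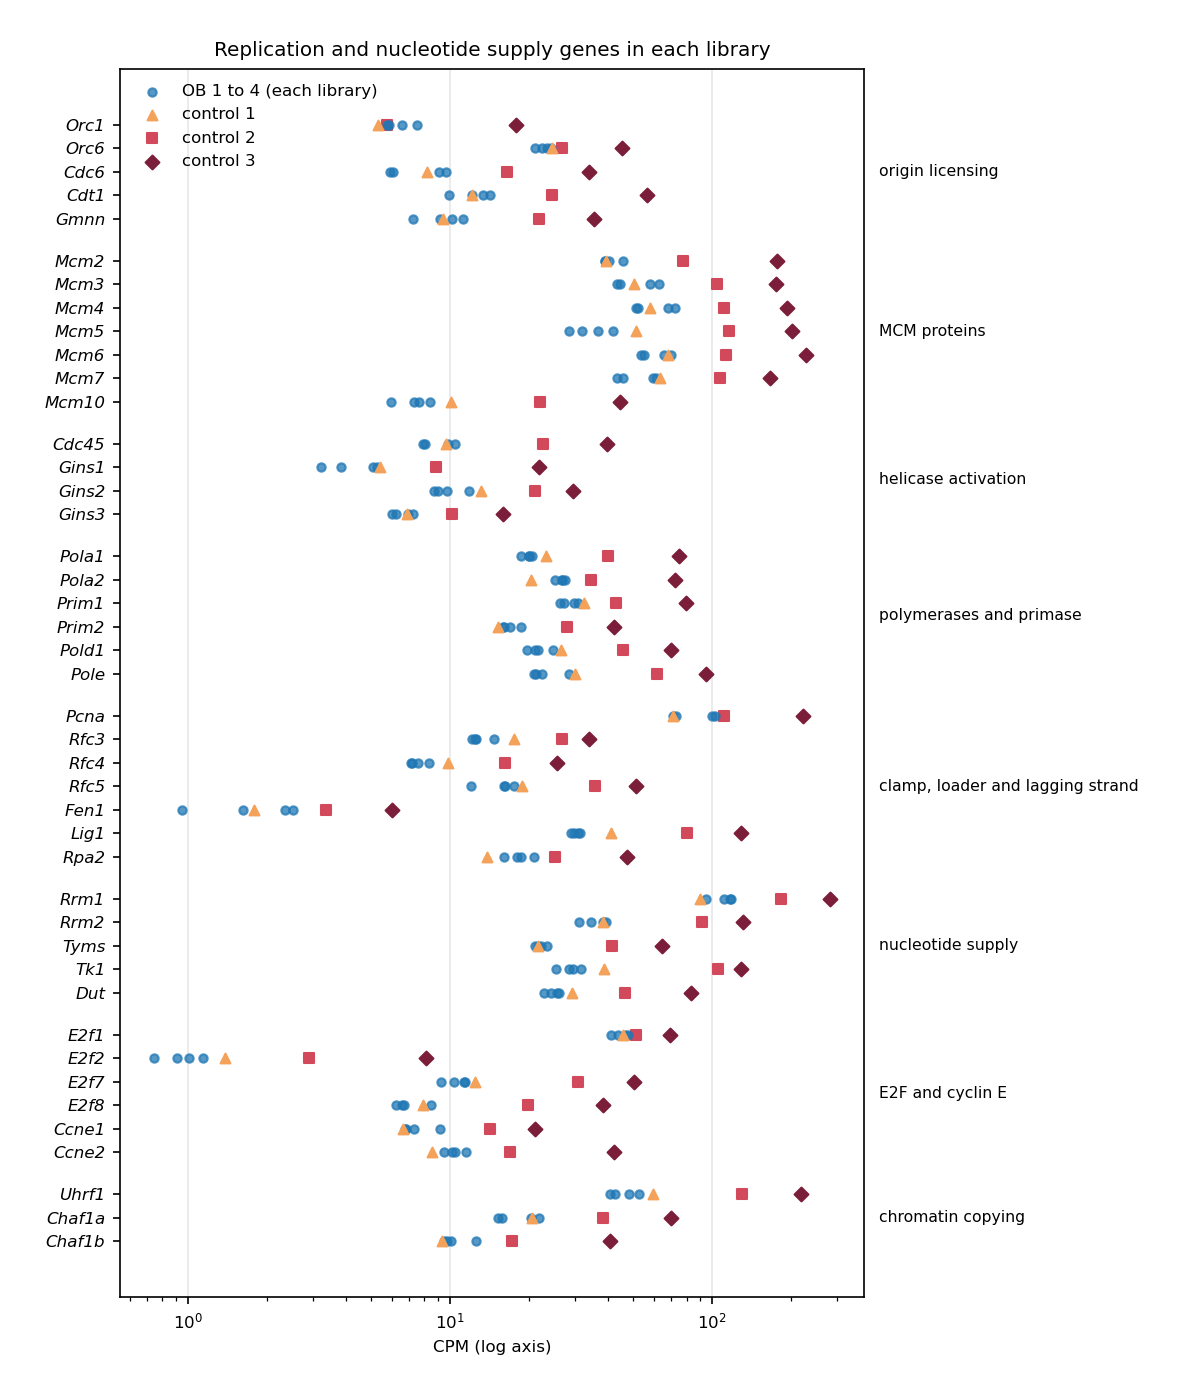
Levels of the 43 genes in each library, in CPM, the count scaled to a common library size, on a log axis, with genes in rows by role, circles for the 4 OB libraries, and a triangle, square and diamond for control 1, control 2 and control 3. The OB circles of a gene lie close together, control 1 lies among or near them, and control 3 is to the right of all of them for all 43 genes.

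The 3 control libraries differed more among themselves in these genes than the 4 OB libraries did. Control 1 was the lowest control and control 3 the highest for all 43 genes, an order that 22.4% of all genes tested shared. Control 3 stood at 1.51 to 5.88 times the CPM of control 1, with a median of 3.36 times, and control 2 at a median of 1.89 times. Among the OB libraries the highest exceeded the lowest by a median of 1.30 times. The coefficient of variation had a median of 12.6% in OB and 57.1% in control. Against the OB libraries, control 3 was above all 4 for 43 genes (34.6% of all genes tested) and control 2 for 42 genes (28.2% of all genes), the exception being Orc1. Control 1 was above all 4 for 19 genes, within their range for 15 and below all 4 for 9. Over all genes tested the corresponding shares for control 1 were 25.3%, 49.7% and 25%.

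Summed over the 43 genes, the level was 1191, 1145, 977 and 1033 CPM in OB 1 to OB 4, against 1148, 2152 and 3685 CPM in control 1, control 2 and control 3. The means were 1086 ± 98.4 CPM in OB (SD, n = 4) and 2328 ± 1278 CPM in control (SD, n = 3). Control 1 lies inside the OB range on this sum, and the other two controls lie above it.

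Total counts were 21213328 to 43403730 in OB and 25689889 to 46530017 in control, so that 3 counts equalled 0.0639 to 0.139 CPM. The lowest count of any of the 43 genes was the 16 of E2f2 in OB 3, whose 95% exact Poisson interval, for counting error only, is 0.424 to 1.20 CPM. On a principal component analysis the leading axis held 53.1% of the variance and placed OB at 20.0 to 52.0 and control at -96.9 to -23.0, with control 3 farthest out. All 9 stromal markers were measured, and summed to 27006 to 37182 CPM in OB and 36805 to 48856 CPM in control. Markers of other cell types were low: 6 macrophage markers summed to 2.94 to 4.63 CPM in OB and 2.70 to 3.76 in control with Adgre1 and Tyrobp at 0, and 6 endothelial markers to 3.34 to 8.07 and 2.38 to 9.45 with Tie1 at 0. For 6 epithelial markers the sums were 0.371 to 1.34 CPM in OB and 1.36 to 3.59 in control, with Epcam at 0.

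Of the 5 origin licensing genes, 0 were called by edgeR, and 4 were lower at an unadjusted p under 0.05 (12.4% of all genes). DESeq2 and limma-voom called 3 and 0 (6.44% and 7% of all genes lower). Gmnn encodes geminin, the inhibitor of CDT1 that blocks relicensing. It had 11.2, 10.2, 9.13 and 7.24 CPM in OB 1 to 4, against 9.45, 21.9 and 35.4 CPM in control 1, 2 and 3. Control 1 fell within the OB range and the other two controls above it, and the log2 fold change was -1.23 ± 0.39 (SE, adjusted p by edgeR = 0.0948). Cdc6, whose product loads the MCM ring with CDT1, had 9.68, 9.12, 5.89 and 6.04 CPM in OB and 8.15, 16.5 and 34.1 CPM in control. Again only control 1 lay within the OB range, with a log2 fold change of -1.34 ± 0.44 (adjusted p by edgeR = 0.105). Orc1, the largest subunit of the origin recognition complex, had 5.86, 5.76, 7.51 and 6.54 CPM in OB and 5.30, 5.75 and 17.8 CPM in control. Both control 1 and control 2 were below every OB library for this gene, so that its fitted difference of -0.58 ± 0.42 (adjusted p by edgeR = 0.429) rested on control 3. The log2 fold changes of Cdt1 and Orc6, another subunit of the recognition complex, were -1.32 and -0.50.

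The MCM group holds the 6 subunits of the replicative helicase and Mcm10, whose product is no part of the ring and helps to activate it. Of these 7 genes, 2 were called lower in OB by edgeR (3.72% of all genes) and 1 by limma-voom (7%). All 7 were called lower with DESeq2 (6.44%) or without control 1 (4.43%). Mcm5 had 42.1, 36.6, 28.4 and 31.8 CPM in OB, against 51.4, 117 and 202 CPM in control, on chr8:75109569-75128439 of mm10. The groups did not overlap, the distance between control 1 and the nearest OB library was small beside that between the controls, and the log2 fold change was -1.83 ± 0.39 (adjusted p by edgeR = 0.0319, and 0.104 with the block). Mcm10 had 5.98, 8.37, 7.28 and 7.61 CPM in OB and 10.1, 22.1 and 44.7 CPM in control. Its groups did not overlap either, with a log2 fold change of -1.80 ± 0.43 (adjusted p by edgeR = 0.0433, and 0.0596 with the block). Mcm4, the MCM gene with the largest p, had 72.2, 68.0, 51.2 and 52.1 CPM in OB and 58.3, 111 and 193 CPM in control. Control 1 lay between the OB libraries, and the log2 fold change was -0.99 ± 0.35 (adjusted p by edgeR = 0.129). The 4 other subunits, Mcm2, Mcm3, Mcm6 and Mcm7, had log2 fold changes of -1.25, -1.07, -1.16 and -1.10, none of which passed. Subunits of 1 ring thus had fitted differences between -1.83 for Mcm5 and -0.99 for Mcm4, a gap that was not tested. Of the 50-base words in Mcm7 transcripts, 18.1% occur also in another gene, most often pseudogene Gm5487, so that the count of Mcm7 is uncertain.

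Helicase activation was represented by Cdc45 and by 3 GINS subunits. Of these genes 1 was called lower by edgeR (3.72% of all genes). Gins2 had 11.8, 9.71, 8.71 and 8.98 CPM in OB, against 13.1, 21.2 and 29.4 CPM in control. Every OB library was below every control, by a log2 fold change of -1.11 ± 0.26 (adjusted p by edgeR = 0.0428, and 0.119 with the block). Of the exon bases of Gins2, 67.3% overlap another gene, chiefly Gse1 on the other strand. The counting did not use strand, so the level of Gins2 is uncertain. Cdc45, part of the active helicase, had 8.05, 10.5, 7.93 and 9.81 CPM in OB and 9.64, 22.7 and 39.9 CPM in control, with control 1 inside the OB range. Its log2 fold change was -1.40 ± 0.41 (adjusted p by edgeR = 0.0744). Gins3 had 6.91, 6.25, 6.03 and 7.24 CPM in OB and 6.88, 10.2 and 15.9 CPM in control, and control 1 again lay among the OB libraries. Its log2 fold change of -0.73 ± 0.27 did not pass (adjusted p by edgeR = 0.144), nor did the -1.45 of Gins1.

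Among the 6 polymerase and primase genes only Pole was called lower by edgeR (3.72% of all genes). For 4 of them every OB library was below every control, against 12.3% of all genes tested. Pole, the catalytic subunit of the leading-strand polymerase epsilon, had 22.4, 20.9, 21.3 and 28.4 CPM in OB, against 29.9, 61.9 and 94.9 CPM in control. Control 1 exceeded OB 4 only slightly, and the log2 fold change was -1.42 ± 0.34 (adjusted p by edgeR = 0.0424, and 0.0641 with the block). Pold1, the catalytic subunit of polymerase delta, had 24.8, 19.8, 21.0 and 21.6 CPM in OB and 26.7, 45.8 and 69.8 CPM in control. The groups did not overlap, and at -1.12 ± 0.28 the gene missed the threshold (adjusted p by edgeR = 0.0511). Pola2, the accessory subunit of polymerase alpha, had 27.5, 26.8, 25.1 and 26.7 CPM in OB and 20.5, 34.6 and 72.3 CPM in control. Control 1 was below all 4 OB libraries here and the other controls above them, with a log2 fold change of -0.68 ± 0.36 (adjusted p by edgeR = 0.283). The catalytic subunit gene Pola1 had a log2 fold change of -1.21, and the primase genes Prim1 and Prim2 had -0.85 and -0.75. None of these 3 passed.

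Of the 7 clamp, loader and lagging-strand genes, 3 were called lower by edgeR (3.72% of all genes), 4 by DESeq2 (6.44%) and 2 by limma-voom (7%). Rfc3, a subunit of the clamp loader, had 14.7, 12.1, 12.4 and 12.6 CPM in OB, against 17.6, 26.7 and 34.1 CPM in control. The groups did not overlap, and its log2 fold change was -1.01 ± 0.22 (adjusted p by edgeR = 0.0320, and 0.0836 with the block). Lig1, the ligase that joins Okazaki fragments, had 29.7, 30.7, 31.3 and 28.9 CPM in OB, nearly level, and 41.2, 80.2 and 129 CPM in control. It was lower by a log2 fold change of -1.47 ± 0.32 (adjusted p by edgeR = 0.0328, and 0.0573 with the block). Rfc4, also of the clamp loader, was the other gene called, at -1.19 ± 0.29 (adjusted p by edgeR = 0.0464, and 0.0661 with the block). Of its exon bases, 12.7% overlap another gene, chiefly Eif4a2 on the other strand. Rfc5 had a log2 fold change of -1.18 and did not pass.

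Pcna, the sliding clamp itself, had 103, 100.3, 71.2 and 73.1 CPM in OB and 70.9, 111 and 222 CPM in control. OB 1 and OB 2 were close to control 2, OB 3 and OB 4 were close to control 1, and the log2 fold change was -0.63 ± 0.35 (adjusted p by edgeR = 0.307). Of the 50-base words of Pcna, 19.1% occur also in another gene, most often pseudogene Pcna-ps2, which makes its count uncertain. Rpa2, a subunit of the single-strand binding protein RPA, had a log2 fold change of -0.64. Fen1, the flap endonuclease, had -0.98 on low counts, with 84.2% of its exon bases overlapping another gene, chiefly Gm10143 on the other strand. Neither of these passed.

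Of the 5 nucleotide supply genes, Tk1 alone was called lower by edgeR (3.72% of all genes). Tk1, the cytosolic thymidine kinase of nucleotide salvage, had 31.5, 29.5, 25.4 and 28.6 CPM in OB, against 38.8, 106 and 129 CPM in control. The groups did not overlap, and with a log2 fold change of -1.67 ± 0.35 it had the smallest p of the 43 genes (adjusted p by edgeR = 0.0294, and 0.0796 with the block). Rrm2 and Rrm1 encode the small and the large subunit of ribonucleotide reductase. Rrm2 had 38.3, 39.3, 31.0 and 34.7 CPM in OB and 38.5, 91.3 and 132 CPM in control, with control 1 inside the OB range. Its log2 fold change was -1.28 ± 0.35 (adjusted p by edgeR = 0.0605). Rrm1 had 117, 119, 94.7 and 111 CPM in OB and 89.9, 183 and 283 CPM in control. Here control 1 was below every OB library, and the log2 fold change was -0.75 ± 0.32 (adjusted p by edgeR = 0.199). Dut, the dUTPase, and Tyms, thymidylate synthase, had log2 fold changes of -1.10 and -0.94 without passing.

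The E2F and cyclin E group spanned the whole range of differences, with 0 of 6 genes called by edgeR and 0 by limma-voom. At an unadjusted p under 0.05, 5 were lower (12.4% of all genes), and DESeq2 called 3 lower (6.44%). E2f2, an activating factor, had 1.14, 1.01, 0.742 and 0.910 CPM in OB, against 1.38, 2.90 and 8.14 CPM in control. OB lay below every control, and this log2 fold change of -2.10 ± 0.55 was the lowest of the 43 genes but missed the threshold (adjusted p by edgeR = 0.0564). E2f7, an atypical E2F that represses, had 11.3, 10.4, 9.22 and 11.4 CPM in OB and 12.5, 30.8 and 50.2 CPM in control. It also had no overlap and missed the threshold, at -1.56 ± 0.39 (adjusted p by edgeR = 0.0504). E2f1, the best known activator, had 43.9, 47.9, 41.1 and 46.7 CPM in OB and 45.9, 51.1 and 69.3 CPM in control. Control 3 stood above the other libraries, at 1.51 times control 1, and control 1 lay among the OB libraries. The log2 fold change of E2f1, -0.30 ± 0.15, was the nearest to 0 of all 43 (adjusted p by edgeR = 0.251). The atypical factor gene E2f8 had -1.66, and Ccne1 and Ccne2, the E cyclins that activate CDK2 at entry into S phase, had -0.90 and -1.11. Of the exon bases of Ccne2, 17.4% overlap another gene, chiefly Ints8 on the other strand.

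Uhrf1 was the gene called lower by edgeR (3.72% of all genes) among the 3 that copy chromatin. The product of Uhrf1 binds hemimethylated DNA behind the fork and recruits DNMT1. The gene had 52.7, 48.3, 42.7 and 40.8 CPM in OB, against 59.4, 130 and 219 CPM in control, without overlap. The log2 fold change was -1.56 ± 0.37 (adjusted p by edgeR = 0.0415, and 0.113 with the block). Of the 50-base words of Uhrf1, 15.4% occur also in another gene, most often pseudogene Gm5648. Chaf1a and Chaf1b encode subunits of CAF-1, the chaperone that places histones on new DNA. Chaf1a had 21.8, 20.3, 15.8 and 15.3 CPM in OB and 20.6, 38.3 and 70.0 CPM in control. Control 1 was inside the OB range, and the log2 fold change was -1.23 ± 0.36 (adjusted p by edgeR = 0.0789). Of the exon bases of Chaf1a, 52.5% overlap another gene, chiefly Ubxn6 on the other strand. Chaf1b had 12.6, 10.1, 9.78 and 9.47 CPM in OB and 9.30, 17.3 and 40.8 CPM in control. Control 1 was just below the OB libraries, and the log2 fold change was -1.10 ± 0.43 (adjusted p by edgeR = 0.160).

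**Figure D2:**
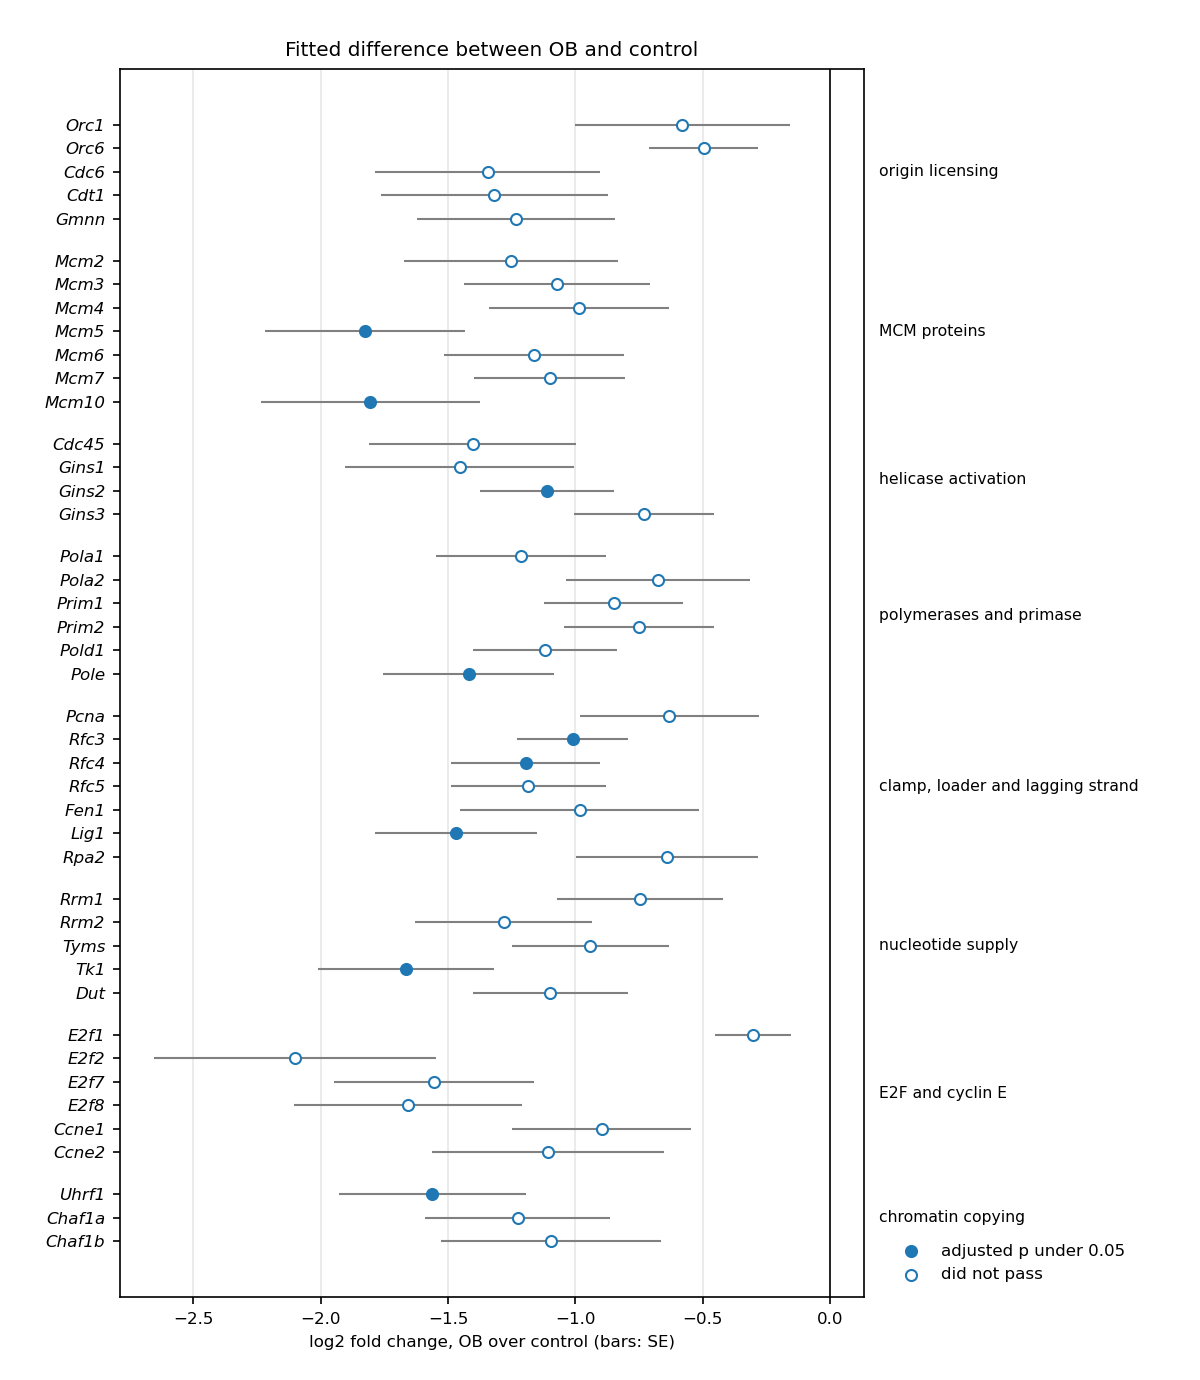
Fitted log2 fold changes (OB over control) of the 43 genes by role, with bars of 1 SE and filled points where the edgeR adjusted p was under 0.05. All points lie left of 0, between -2.10 for E2f2 and -0.30 for E2f1, and 9 are filled.

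Levels can be set beside each other between genes only per length, as FPKM, which is CPM per kilobase of exon. On this scale Pcna was the highest of the 43 in both groups, with a mean of 36.2 FPKM in OB and 56.1 FPKM in control. Mcm4 followed with 17.0 FPKM in OB and 33.6 FPKM in control. E2f2 was the lowest, with 0.195 FPKM in OB and 0.848 FPKM in control. Mcm5 was 13th of the 43 in OB (8.70 FPKM) and 5th in control (30.9 FPKM), whereas E2f1 was 3rd in OB (14.2 FPKM) and 11th in control (17.6 FPKM). Library by library, E2f1 was 2nd to 5th in OB and 4th, 13th and 16th in control 1, 2 and 3, so that control 1 lay within the OB ranks. Mcm5 was 11th to 15th in OB and 9th, 5th and 4th in control 1, 2 and 3. The ring subunits Mcm2 to Mcm7 averaged 5.91 to 17.0 FPKM in OB and 14.1 to 33.6 FPKM in control.

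The submitters' descriptions of the libraries begin with C1 for OB 1 and control 1, with C2 for OB 2 and control 2, and with neither for OB 3, OB 4 and control 3. The descriptions of OB 3 and OB 4 differ from each other only in the number after NC. The labels do not say what these marks stand for. In log2 CPM over all genes tested, OB 3 and OB 4 were the closest OB pair (r = 0.990, against 0.968 to 0.987). Within the C1 set 23 of the 43 genes were lower in OB 1 than in control 1 and 20 were higher, with a median difference of -0.06 in log2 CPM and a range of -0.75 for Mcm10 to 0.60 for Rpa2. This split was close to that of all genes tested, of which 50.2% were lower in OB 1. Within the C2 set 42 genes were lower in OB 2 than in control 2, against 49.9% of all genes, with a median of -0.87 and a range of -1.84 for Tk1 to 0.00 for Orc1. In the set without a C mark all 43 were lower in the mean of OB 3 and OB 4 than in control 3, against 48.6% of all genes, with a median of -1.94 and a range of -3.21 for E2f2 to -0.66 for E2f1. The size of the difference thus went with the control library of the set, and single libraries allow no test of it.

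**Figure D3:**
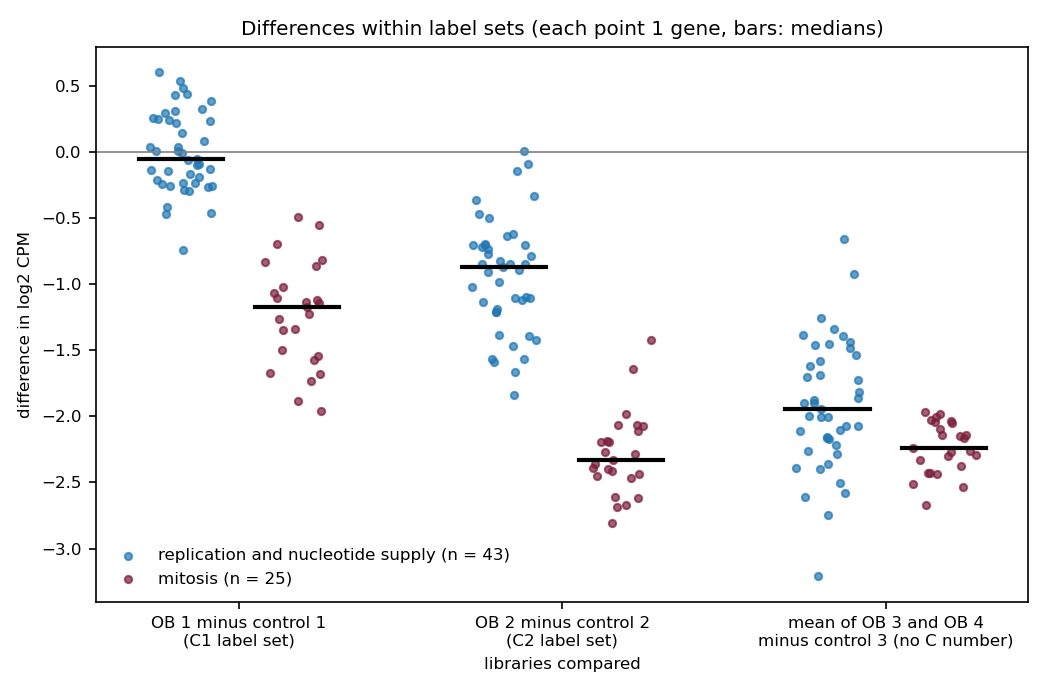
Difference in log2 CPM between OB and control libraries of the same label set, 1 point per gene, with the 43 replication and nucleotide supply genes beside 25 mitosis genes and bars at the medians. The medians of the 43 genes are -0.06, -0.87 and -1.94, and those of the mitosis genes are -1.18, -2.33 and -2.24.

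Fitted on subsets, the same contrast gave 0 of 43 genes lower in edgeR with only the C1 and C2 libraries (2 against 2), against 3.41% of all genes. At an unadjusted p under 0.05, 11 were lower there, against 13.7% of all genes. With only the libraries without a C mark, all 43 were called lower, against 21.2% of all genes, in a fit that assumes the lone control to vary like the OB libraries. With the label set as a block, 16 were called against 8.13% of all genes. Without control 2, or without any 1 of the 4 OB libraries, 0 of the 43 were called by edgeR. The shares of all genes were then 0.675% without control 2, and 0.662%, 1.18%, 1.45% and 1.29% without OB 1, OB 2, OB 3 and OB 4. In these fits 29 to 34 of the 43 were lower at an unadjusted p under 0.05, against 9.89% to 11.0% of all genes. The other settings called 9 of 43 with DESeq2 size factors in edgeR (3.76% of all genes), 12 with upper-quartile scaling (3.73%), 21 without the filter (2.29%) and 6 with limma-voom (7%).

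**Figure D4:**
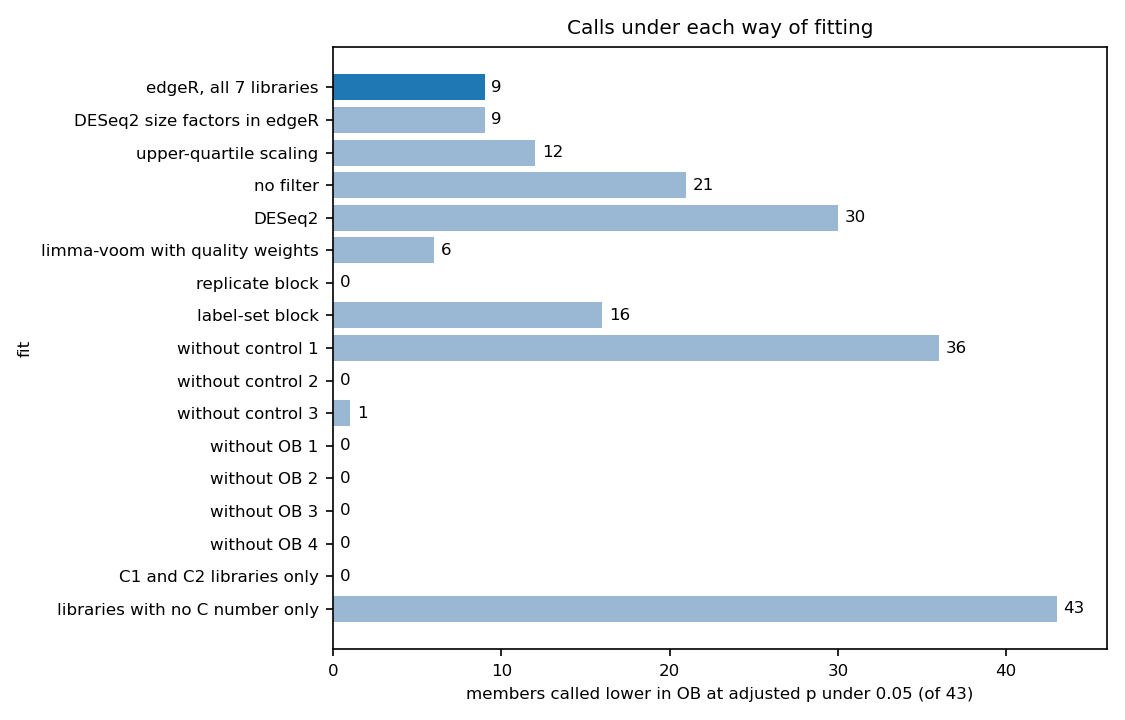
Number of the 43 genes called lower in OB at an adjusted p under 0.05 under each fit, from 0 to 43. Bars reach 36 without control 1 and 43 with only the libraries without a C mark, and stand at 0 or 1 when any other library is left out.

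Other genes of the same pathways were taken from further lists. Of 36 other replication genes, 3 were lower by edgeR (3.72% of all genes), with a median log2 fold change of -0.58 over the 36. None was called higher by edgeR, DESeq2 or limma-voom. DESeq2 called 12 of the 36 lower (6.44% of all genes) and limma-voom 2 (7%), and edgeR called 17 without control 1 (4.43%). Timeless, a fork protection protein, had 19.4, 18.3, 15.0 and 16.7 CPM in OB and 24.3, 46.5 and 73.2 CPM in control (log2 fold change -1.46, adjusted p by edgeR = 0.0332). Recql4 and Ticrr, which act in origin firing, had log2 fold changes of -1.62 and -1.81 (adjusted p by edgeR = 0.0452 and 0.0490). All 3 had OB below every control, against 12.3% of all genes tested. None of the 3 was called with the replicate block or when any 1 library other than control 1 was left out.

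The 27 other nucleotide genes, mostly of purine and pyrimidine synthesis, moved less, with a median of -0.30. Of them, 2 were higher in OB, against 4.32% of all genes tested. Slc29a1, an equilibrative nucleoside transporter, had 365, 355, 333 and 332 CPM in OB and 191, 213 and 188 CPM in control, with no overlap and little spread in either group. Its log2 fold change was 0.81 ± 0.10 (adjusted p by edgeR = 0.00681). Samhd1, the hydrolase that breaks down deoxynucleotides, had 251, 195, 215 and 217 CPM in OB and 152, 125 and 92.9 CPM in control (log2 fold change 0.83, adjusted p by edgeR = 0.0307). The call of Slc29a1 remained with the block and without each library in turn, and that of Samhd1 was lost without control 2 and without each OB library. None of the 27 was called lower by edgeR or limma-voom, and 8 were lower at an unadjusted p under 0.05 (12.4% of all genes). DESeq2 called 2 lower (6.44% of all genes), and edgeR called 3 lower without control 1 (4.43%).

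Of 25 tested RB and E2F regulators, 2 were lower and 0 higher by edgeR (3.72% and 4.32% of all genes), with a median of -0.23. The count of lower genes was 6 without control 1 (4.43% of all genes), 5 with DESeq2 (6.44%) and 5 with the label set as a block (8.13%). DESeq2 called 1 of the 25 higher (1295 of 17632 genes tested) and limma-voom also 1 (1247 of 15441). The label-set block called 2 higher (1433 of 15441 genes). Before adjustment, the edgeR p was below 0.05 for 9 of the 25 in either direction, of which 3 were higher. The same held for 3889 of all 15441 genes in either direction. Cdkn2c, an inhibitor of CDK4 and CDK6, had 42.4, 46.6, 48.8 and 54.0 CPM in OB and 66.4, 122 and 106 CPM in control (log2 fold change -1.03, adjusted p by edgeR = 0.0228). Ccna2, cyclin A, had 25.5, 29.5, 32.5 and 39.3 CPM in OB and 48.9, 129 and 162 CPM in control (log2 fold change -1.84, adjusted p by edgeR = 0.0246). Neither overlapped between groups, and neither was called without control 2 or without any 1 OB library. Of 18 replication checkpoint and repair genes 6 were lower by edgeR (3.72% of all genes), and the median over the 18 was -1.46. The 6 were led by Bard1 (-1.65), the partner of BRCA1, by Pclaf (-1.77), a PCNA-binding protein, and by Fanci (-1.88) of the Fanconi pathway. Of these 18 genes, 0 were called without control 2 (0.675% of all genes) or without OB 1 (0.662%), and 3 without control 3 (3.2%). There was 1 each without OB 2 (1.18%), OB 3 (1.45%) and OB 4 (1.29%). Without control 1 (4.43%) or with DESeq2 (6.44%), 13 were called, and limma-voom called 2 (7%). Of 12 other chromatin copying genes 0 were called by edgeR and 1 was lower by limma-voom (7% of all genes). At an unadjusted p under 0.05, 9 were lower (12.4% of all genes). DESeq2 called 5 (6.44%), and edgeR called 7 of the 12 without control 1 (4.43%). The most abundant of these, Rbbp4 and Rbbp7, histone-binding subunits, had log2 fold changes of -0.04 and -0.45.

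A list of mitosis genes was set beside the 43. Of 25 mitosis genes 24 were lower in OB by edgeR (3.72% of all genes), with a median log2 fold change of -1.99. Control 1 was above all 4 OB libraries for each of the 25, as against 19 of the 43 and 25.3% of all genes tested. Cdc25c, the phosphatase that activates CDK1, had 4.64, 5.76, 5.61 and 5.54 CPM in OB and 15.6, 37.0 and 35.8 CPM in control (log2 fold change -2.45, adjusted p by edgeR = 0.00613). Kif20a, a kinesin of cytokinesis, and Ccnb2, a B cyclin, had log2 fold changes of -2.09 and -2.08. The number of mitosis genes called was 6 without control 2, where 0.675% of all genes were called lower. It was 5, 11, 15 and 17 without OB 1, OB 2, OB 3 and OB 4 (0.662%, 1.18%, 1.45% and 1.29% of all genes). Without control 3 it was 19 (3.2%), and without control 1 it was 25 (4.43%). Within the C1 set all 25 mitosis genes were lower in OB 1 than in control 1, with a median of -1.18, where the 43 had -0.06. The ratio of the summed CPM of the 43 genes to that of the 25 mitosis genes was 1.90, 1.53, 1.18 and 1.08 in OB 1 to OB 4, against 0.790, 0.583 and 0.890 in control 1, 2 and 3. Every OB library thus had more replication RNA per mitosis RNA than every control, although no such ratio was part of a test.

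**Figure D5:**
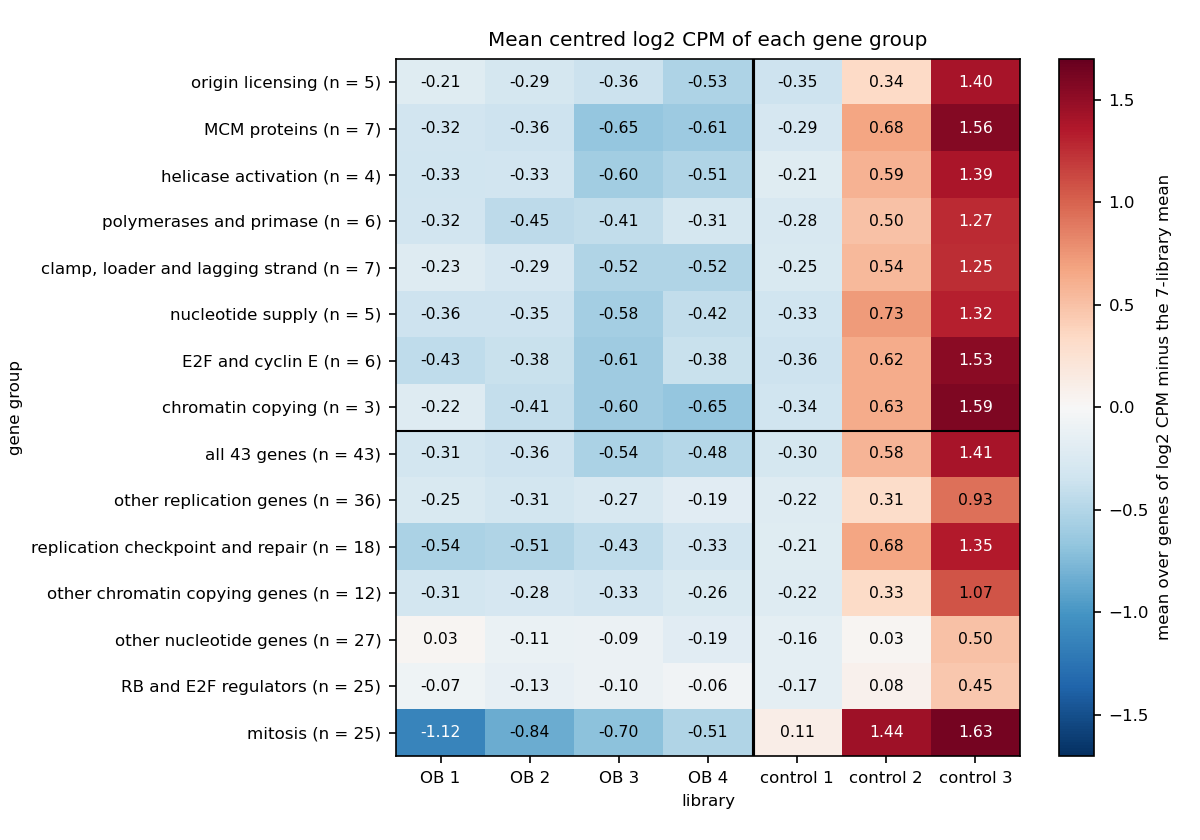
Mean over the genes of each group of log2 CPM minus that gene's mean over the 7 libraries, with libraries in columns and gene groups in rows, the 8 roles on top. Over the 43 genes the value is -0.31, -0.36, -0.54 and -0.48 in OB 1 to OB 4 and -0.30, 0.58 and 1.41 in control 1 to control 3, with control 1 the lowest control and control 3 the highest in all 8 roles.

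The 8 roles moved together across the libraries. Their mean centred log2 CPM lay between -0.65 and -0.21 in the OB libraries, between -0.36 and -0.21 in control 1, between 0.34 and 0.73 in control 2 and between 1.25 and 1.59 in control 3. Control 1 lay within the OB range of these means or slightly above it in each role. Beyond the roles, the median log2 fold changes were -1.33 for E2F and cyclin E genes, -1.26 for helicase activation, -1.23 for origin licensing and for chromatin copying, -1.16 for MCM proteins, -1.10 for nucleotide supply, -1.01 for clamp, loader and lagging-strand genes and -0.98 for polymerases and primase. The differences between roles were not tested.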

How the data were processed

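Libraries were prepared from Trizol-extracted RNA by the unstranded TruSeq v2 protocol, per the labels' protocols. Per the file headers, the deposited values are whole counts per gene from featureCounts 1.6.4 with the Ensembl 94 annotation, not normalised. The submitters' processing notes name the mm10 build. Columns were matched to samples through the input names, in order, of the counting command that heads the deposited table. Fragments shared by overlapping genes, or aligned to several places, were not counted, which lowers the level of the genes named as uncertain. The exon length in bases, deposited with the counts, gave FPKM. The dexamethasone dose is not printed, since the labels leave its value unclear.

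In R 4.3.3, edgeR 4.0.16 was run with filterByExpr, TMM scaling and the quasi-likelihood test of OB over control on all 7 libraries. The common biological coefficient of variation was 26.9%. CPM used TMM library sizes, and log2 CPM a prior count of 2. SE is the absolute log2 fold change divided by the root of the F statistic. Alternatives were other scalings, no filter, DESeq2 1.42.0, limma-voom with sample quality weights (limma 3.58.1), blocks, and libraries left out. The name limma-voom stands for this weighted fit throughout. The code was tested on simulated counts. The design text describes the replicates as biological, and p-values reflect how much these libraries varied. Libraries of the same number deviated together over all genes (r = 0.17, 0.52 and 0.40 for numbers 1, 2 and 3). The main test had no block, and the number entered only in the fit with the replicate block. OB 1 deviated slightly more with control 2 (r = 0.21) than with control 1, and OB 4, which has no partner, deviated with control 3 (r = 0.27). The members, lists and tests were chosen with earlier results of these data known. In each role, values per library are given for the 2 genes with the smallest p and the 1 with the largest, and in each further list up to 3 called genes are named in order of p, or the 2 most abundant where fewer than 2 were called. Overlapping genes and shared words came from a GENCODE annotation, and promoter windows from RefSeq on GRCm38.p6.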

Additional observations from a re-analysis of the deposited data

How the results depend on the processing

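The 43 genes kept their direction in 683 of 688 values under the alternatives. The exceptions were Orc1, at 0.15 with limma-voom, 0.21 without control 3 (-0.89 to 0.21 over all libraries left out in turn) and 0.075 with only the C1 and C2 libraries, and Pcna (0.16) and Rpa2 (0.0090) with those libraries. Rbbp4 had 0.10, 0.14 (-0.16 to 0.14 over libraries left out) and 0.15 under the same 3 settings. None of these passed the test, and the cause was not tested. Genes of the 43 called lower numbered 9, against 21 without the filter, 30 with DESeq2, 0 with the replicate block, 16 with the label-set block, 0 with only the C1 and C2 libraries, 43 with only the libraries without a C mark, and 0 to 36 when each library was left out. Their median log2 fold change of -1.12 became -0.49 with only the C1 and C2 libraries, -1.94 with only those without a C mark, and -1.49 to -0.68 when each library was left out. Over all genes, DESeq2 called 1136 lower and 1295 higher, limma-voom 1081 and 1247, the label-set block 1256 and 1433, and the libraries without a C mark 3413 and 3052. The C1 and C2 libraries gave 1030 higher. Leaving out each library gave 104 to 703 lower and 190 to 575 higher. With the replicate block, 0 of the 36 other replication genes and 5 of the 18 checkpoint and repair genes were called lower, against 3 and 6. Of the 25 mitosis genes 23 were called lower, against 24. The share of all genes was 3.38%, against 3.72%, and no count of the other 3 lists changed. No call among the 9 held without each of the 7 libraries in turn. Counts of the 43 genes were at least 16 in every library, and how much depth and the number of libraries each limit these calls was not tested.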
